A study of Mus musculus with 7 samples.

Results

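GATA2 peaks were called at 1238 distal sites that lacked the preferred GATA2 motif near the summit and had no 9aa-Ins peak. These sites were taken from 6254 GATA2 peaks in 3 steps. They did not overlap a 9aa-Ins peak by even 1 bp, which held for 5296 peaks (84.7% of the list). Their summits lay outside protein-coding exons and outside the region from 2 kb upstream to 100 bp downstream of every protein-coding transcript start, which left 2598 intronic or intergenic peaks. No WGATAR (GATA with A or T before it and A or G after it, on either strand) lay wholly within 100 bp of the summit. Over all GATA2 peaks, 4361 (69.7%) lacked WGATAR in this window. The sites are called WGATAR-free peaks below, a name that refers to this window only. They were 19.8% of all GATA2 peaks and 47.7% of the distal GATA2-only peaks (95% Wilson interval 45.7% to 49.6%), and the other 1360 distal GATA2-only peaks held WGATAR. Overlap, position and motif were the values on which the peaks were chosen, and they are given as description.

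The peaks came from CUT&Tag, in which an antibody guides a transposase to the DNA around a bound protein. All groups used hi–77−/− cells, a Hoxb8-immortalized line of progenitors from mouse fetal liver that lacks the Gata2 –77 enhancer and was grown with β-estradiol. Retrovirus brought in GATA2 with an HA tag, or the tagged variant 9aa-Ins, whose zinc fingers are separated by extra residues, and GFP+ cells were sorted after 3 days. Each peak list merged 2 anti-HA libraries, which came from one pool of cells per construct, so there is 1 list per construct and no spread between replicates. Introduced GATA2 was measured in a cell line, and 3 libraries made with anti-GATA2 are left aside. The samples include no control antibody or empty-vector library, so GATA2 occupancy cannot be told apart from other sources of reads. Median pileup, the number of reads over a summit, was 15 in the GATA2 list and 13 in the 1079 9aa-Ins peaks. The background was 0.464 and 0.455 reads, and library totals were not analysed here. Intervals and tests below treat peaks as units and cover counting error between peaks of these merged libraries, not a spread between cultures. The authors removed duplicated reads, but reads without molecular identifiers still cannot be taken as independent molecules.

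GATA2 is a zinc finger transcription factor required for hematopoietic stem and progenitor cells. Its zinc fingers recognize WGATAR, and at distal regulatory elements it is often found beside TAL1 and E proteins at E-boxes, RUNX1, and ETS factors such as FLI1, ERG and PU.1.

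The sequences of the tallest WGATAR-free peaks showed how close the motif could lie to the edge of the window. Shown are the 5 tallest peaks that touched no annotated exon and held no repeated 24-base word, taken from the chromosomes whose sequence is printed here, and 3 others that were the tallest by the same limits with a motif tested below. Each run covers 149 bases to each side of the summit on the plus strand of mm10 (RefSeq, GRCm38), and the nearest protein-coding gene is its name. The length of the stretch was chosen after it was seen that WGATAR often lay just past the limit. Capitals mark WGATAR, which by the choice of the peaks is never wholly within the central window of 100 bp to each side. Within that window they also mark the GC box GGGCGG, the RUNX motif TGTGGT, the part AGGNGGC of the CTCF motif, the E-box CAGATG, the ETS core AGGAAG and its CpG form CCGGAA, on either strand.
Zfp36l2, chr17:84116363-84116661: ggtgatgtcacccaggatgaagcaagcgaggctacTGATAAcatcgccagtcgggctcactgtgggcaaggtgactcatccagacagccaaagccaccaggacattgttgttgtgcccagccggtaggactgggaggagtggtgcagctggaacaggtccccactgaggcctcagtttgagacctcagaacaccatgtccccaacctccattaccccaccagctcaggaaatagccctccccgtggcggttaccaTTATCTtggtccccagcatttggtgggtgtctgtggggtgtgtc
Bid, chr6:120956596-120956894: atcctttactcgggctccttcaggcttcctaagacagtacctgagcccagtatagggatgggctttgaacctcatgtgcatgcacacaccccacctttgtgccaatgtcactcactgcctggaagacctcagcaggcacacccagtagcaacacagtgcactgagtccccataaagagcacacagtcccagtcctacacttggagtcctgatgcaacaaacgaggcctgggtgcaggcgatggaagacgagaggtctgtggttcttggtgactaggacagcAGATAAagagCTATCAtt
Nsmce1, chr7:125472394-125472692: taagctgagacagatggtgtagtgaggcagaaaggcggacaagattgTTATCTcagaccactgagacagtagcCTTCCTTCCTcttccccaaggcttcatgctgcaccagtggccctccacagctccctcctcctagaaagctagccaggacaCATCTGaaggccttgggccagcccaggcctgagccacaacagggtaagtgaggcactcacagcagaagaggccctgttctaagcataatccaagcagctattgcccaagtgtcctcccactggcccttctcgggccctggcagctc
Arhgap25, chr6:87542124-87542422: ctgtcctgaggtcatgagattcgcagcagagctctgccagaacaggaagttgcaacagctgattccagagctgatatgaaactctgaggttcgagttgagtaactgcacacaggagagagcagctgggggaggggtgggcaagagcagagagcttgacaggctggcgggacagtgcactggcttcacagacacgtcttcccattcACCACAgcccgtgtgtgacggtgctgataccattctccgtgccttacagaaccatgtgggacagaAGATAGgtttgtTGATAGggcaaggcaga
Bcl6, chr16:24151209-24151507: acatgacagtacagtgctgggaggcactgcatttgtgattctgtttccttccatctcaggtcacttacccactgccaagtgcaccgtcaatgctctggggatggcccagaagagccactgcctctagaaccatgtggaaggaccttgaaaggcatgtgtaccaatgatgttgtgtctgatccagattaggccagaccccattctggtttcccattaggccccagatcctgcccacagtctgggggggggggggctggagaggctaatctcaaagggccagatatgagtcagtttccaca
Sh2d6, chr6:72512622-72512920: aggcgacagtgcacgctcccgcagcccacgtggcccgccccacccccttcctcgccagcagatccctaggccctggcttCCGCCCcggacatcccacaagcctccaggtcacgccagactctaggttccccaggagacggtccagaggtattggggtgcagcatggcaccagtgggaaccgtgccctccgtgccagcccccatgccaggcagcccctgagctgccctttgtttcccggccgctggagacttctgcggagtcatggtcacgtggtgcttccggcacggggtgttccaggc
Mfsd4a, chr1:132095523-132095821: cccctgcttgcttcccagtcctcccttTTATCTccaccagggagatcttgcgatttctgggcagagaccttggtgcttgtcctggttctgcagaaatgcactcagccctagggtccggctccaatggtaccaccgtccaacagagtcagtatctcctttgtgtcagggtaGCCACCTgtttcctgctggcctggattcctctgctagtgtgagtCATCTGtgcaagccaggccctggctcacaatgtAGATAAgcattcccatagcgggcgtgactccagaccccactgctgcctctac
Map3k5, chr10:19939248-19939546: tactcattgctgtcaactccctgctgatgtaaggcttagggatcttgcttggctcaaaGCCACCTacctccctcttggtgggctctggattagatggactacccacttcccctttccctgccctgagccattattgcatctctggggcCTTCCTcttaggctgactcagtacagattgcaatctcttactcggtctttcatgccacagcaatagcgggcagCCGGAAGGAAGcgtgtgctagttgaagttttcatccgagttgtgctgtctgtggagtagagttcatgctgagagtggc

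The peak near Zfp36l2 was the tallest, with 66 reads, and held WGATAR on both sides of the summit, ending 114 bases before and 111 bases after it. Bid (64 reads) had a pair of WGATARs 137 and 147 bases away, Arhgap25 (43 reads) a pair at 126 and 138 bases, and Nsmce1 (48 reads) 1 that straddled the limit, with its farthest base 102 bases away. Of the 5 tallest shown, Bcl6 (42 reads) had no WGATAR in its stretch. Sh2d6 (41 reads) and Map3k5 (29 reads), shown for GGGCGG and CCGGAA, had none either, whereas Mfsd4a (36 reads) had 1 at 122 bases and 1 that straddled the limit, at 103 bases. The Nsmce1 peak carried an E-box of the TAL1 type 9 bases from the summit and a pair of AGGAAG complements at 72 and 76 bases. Distances run from the summit to the farthest base of the motif.

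WGATAR-free peaks were lower than the other distal classes. Their pileup ranged from 9 to 66 reads, with a median of 13 (quartiles 11 and 16), and 767 of 1238 (62.0%) had fewer than 15 reads. Distal GATA2-only peaks with WGATAR had a median of 16 reads (quartiles 13 and 21), and 41.6% had fewer than 15. Distal shared peaks lacking WGATAR, 160 sites also called with 9aa-Ins, were taller, with a median of 20 reads. GATA2-only promoter peaks lacking WGATAR had a median of 14 reads (quartiles 12 and 17), and 55.1% had fewer than 15. Height enters the overlap with the 9aa-Ins list, so no test was made on it. Fold enrichment, the pileup plus 1 over the background plus 1, had a median of 9.56 and ranged from 6.83 to 45.8. Median width was 300 bp, against 341 bp for peaks with WGATAR and 559 bp for the shared sites.

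**Figure D1:**
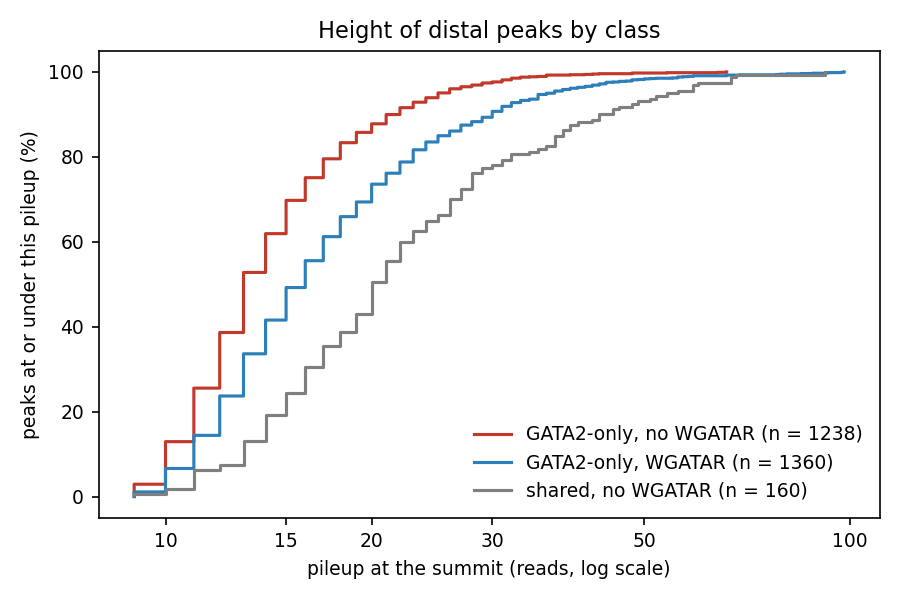
Cumulative share of peaks (%) against pileup at the summit (reads, log scale) for the 3 classes of distal peaks. WGATAR-free GATA2-only peaks (median 13 reads) rise first, peaks with WGATAR (median 16) next and shared peaks lacking WGATAR (median 20) last.

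At the lowest height called, 9 to 10 reads, 63.9% of distal GATA2-only peaks (161 of 252) were WGATAR-free. This share was 57.8% at 11 to 12 reads, 52.6% at 13 to 15, 40.3% at 16 to 20, and 29.6% of 510 peaks from 21 reads upward. A 9aa-Ins peak lay within 1 kb of 33 WGATAR-free peaks (2.67%) and within 100 bp of 5, the nearest 11 bp away. On the other side of that limit, 3 of the 160 shared sites overlapped a 9aa-Ins peak by at most 100 bp, the least by 15 bp.

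Beyond the window, WGATAR was common. Of the WGATAR-free peaks, 534 (43.1%, interval 40.4% to 45.9%) had WGATAR wholly between 100 and 250 bp from the summit, and 362 (29.2%) had it inside the called peak. Windows 2 kb to either side that also lacked WGATAR within 100 bp of their centre had it between 100 and 250 bp in 37.7% (interval 35.4% to 40.0%, n = 1735). Distal shared peaks lacking WGATAR had it in 31.9%, 11.3 percentage points below the WGATAR-free GATA2-only peaks (Fisher's exact test, two-sided, adjusted p = 0.00902 over 7 features), with 28.9% in their own flanking windows. Without CpG-rich windows the difference was 8.45 points and did not pass (exact adjusted p = 0.117). At a q-value limit of 1e-10 it was 20.1 points (exact adjusted p = 1.42e-04). Distal GATA2-only peaks with WGATAR had one between 100 and 250 bp away in 54.0%.

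WGATAR just past the window was found in a larger share of the taller WGATAR-free peaks, up to 21 to 29 reads, and in no larger share from 30 reads upward. It lay between 100 and 250 bp in 30.4% of those with 9 to 10 reads (49 of 161), 38.1% at 11 to 12 reads, 44.9% at 13 to 15, 47.5% at 16 to 20, 56.3% at 21 to 29, and 56.2% (18 of 32) from 30 reads upward. Width moved with this, from a median of 213 bp in the lowest group to 606 bp in the tallest, and its part in the result was not tested. Among the 10 tallest, 5 had WGATAR within 150 bp and 8 within 250 bp. The nearest WGATAR was a median of 282 bp away (quartiles 164 and 538), and 89 peaks (7.19%) had none within 1000 bp. Just inside the limit, the 208 distal GATA2-only peaks whose nearest WGATAR lay at 76 to 100 bp had a median of 15 reads, and in the 25 bp just outside it, 145 peaks had a median of 14.

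**Figure D2:**
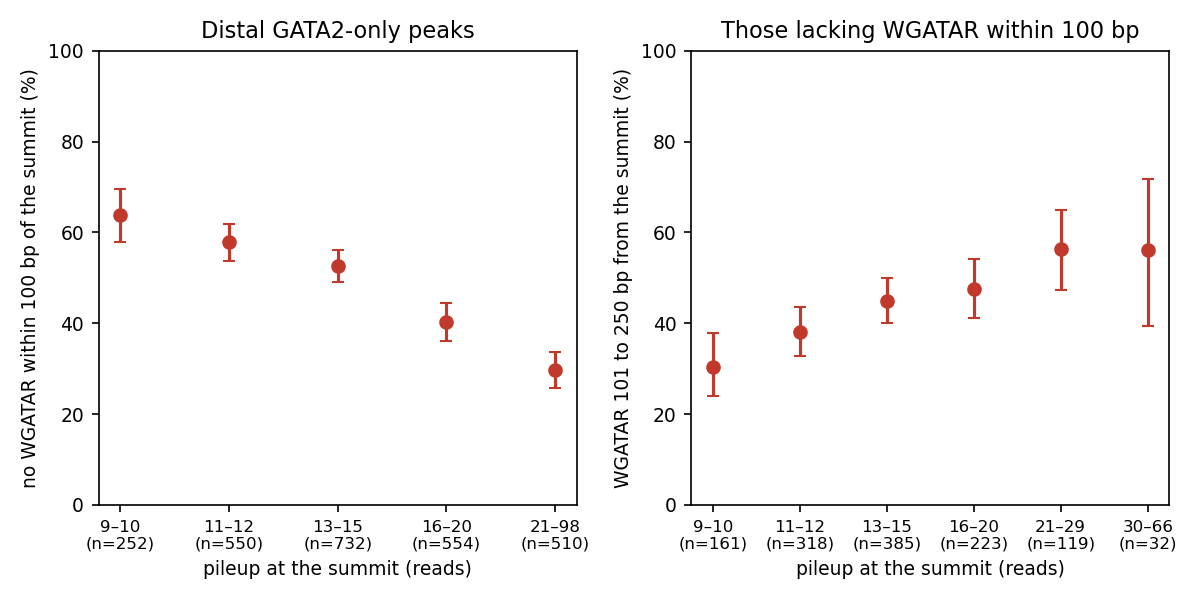
Left, share (%) of distal GATA2-only peaks with no WGATAR within 100 bp of the summit by pileup (reads); right, share (%) of these WGATAR-free peaks with WGATAR between 100 and 250 bp away. Bars are 95% Wilson intervals; the left share falls from 63.9% to 29.6% and the right share goes from 30.4% to 56.2% with height.

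WGATAR-free peaks lay nearer to genes than distal GATA2-only peaks with WGATAR. Within 10 kb of a protein-coding gene start were 504 of 1238 (40.7%) against 346 of 1360 (25.4%), a difference of 15.3 percentage points (Fisher's exact test, two-sided, adjusted p = 3.91e-16 over 6 features). The difference was 8.44 points without CpG-rich windows (exact adjusted p = 4.59e-05) and 9.26 points with a motif window of 50 bp (exact adjusted p = 5.94e-06). Median distance to the nearest start was 15.5 kb (quartiles 3.65 and 44.7) against 26.7 kb. Starts of other transcript types, such as long non-coding RNAs and non-coding isoforms, lay within the same promoter limits at 16.7% against 9.56% (exact adjusted p = 1.30e-07). This difference did not pass without CpG-rich windows (1.82 points, exact adjusted p = 0.193), and was 4.68 points with the GENCODE basic set. Introns held 58.3% against 56.2%, which missed the threshold at 2.07 points apart (exact adjusted p = 0.302).

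Another GATA2 peak lay within 10 kb of 477 WGATAR-free peaks (38.5%), against 32.9% of peaks with WGATAR (exact adjusted p = 0.00471). This difference did not pass with a q-value limit of 1e-10 (3.34 points, exact adjusted p = 0.121) or a motif window of 50 bp (3.86 points, exact adjusted p = 0.0835). Of the 477 nearest neighbours, 146 were WGATAR-free themselves, 124 were distal GATA2-only peaks with WGATAR and 156 were at promoters. In 162 of 477 (34.0%) the nearest neighbour held WGATAR. Distal shared peaks lacking WGATAR stood further toward genes: 57.5% were within 10 kb of a gene start (exact adjusted p = 1.08e-04), 31.2% near a start of another type (exact adjusted p = 1.04e-04) and 55.6% near another GATA2 peak (exact adjusted p = 1.08e-04), over 7 features. The last difference did not pass without repeated windows.

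**Figure D3:**
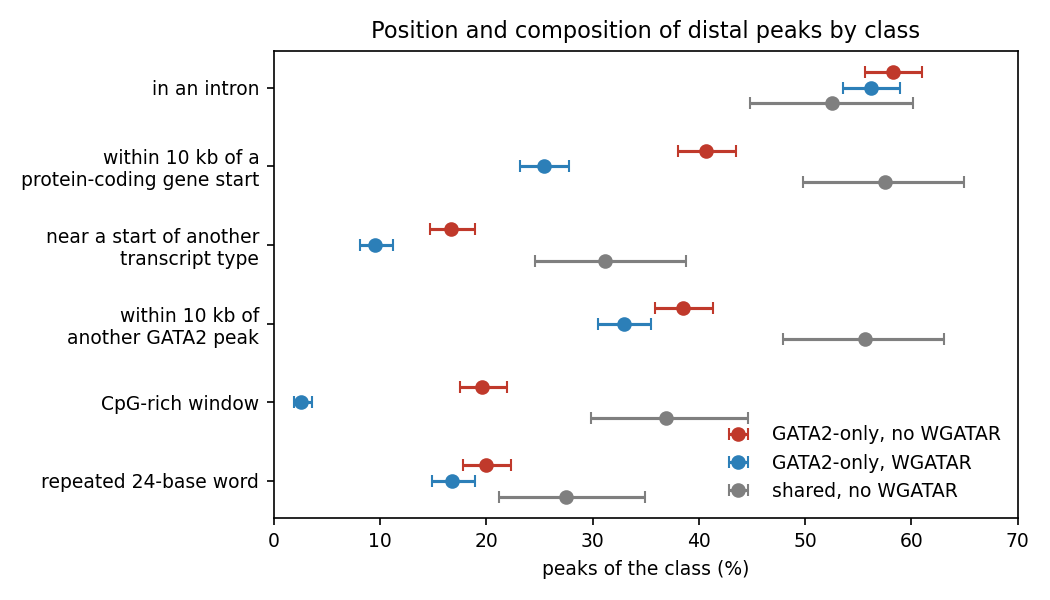
Share of peaks (%) with each feature in distal GATA2-only peaks lacking WGATAR (n = 1238), those with WGATAR (n = 1360) and distal shared peaks lacking WGATAR (n = 160), with 95% Wilson intervals. The WGATAR-free peaks lie between the other classes for nearness to a gene start (40.7%) and CpG-rich windows (19.6%).

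CpG-rich sequence was more frequent in WGATAR-free peaks than in distal GATA2-only peaks with WGATAR, and less frequent than in shared sites. A window was called CpG-rich at a GC content of at least 50% and an observed over expected CpG ratio of at least 0.6, the composition of CpG islands that mark many promoters. It was found at 243 WGATAR-free peaks (19.6%), 35 peaks with WGATAR (2.57%, exact adjusted p = 6.07e-48) and 59 shared sites (36.9%, exact adjusted p = 2.20e-05), and at 46.1% of all GATA2 peaks, promoters included. The difference from peaks with WGATAR was 17.1 points, 11.2 with all transcript types excluded and 26.3 with a motif window of 200 bp. Around these peaks, 2.94% of flanking windows lacking WGATAR and 1.08% of those holding it were CpG-rich, with no test made. WGATAR, rich in A and T, was sought in the same window, so the composition of a window was not free of the choice. GC content was 55.8% ± 8.71 (SD, n = 1238) in WGATAR-free windows and 47.6% in the flanking windows that lacked it.

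Among themselves, the 243 CpG-rich and the 995 other WGATAR-free peaks differed in position but not in median height, which was 13 reads in both. Of the CpG-rich ones, 72.4% were within 10 kb of a gene start and 41.6% near a start of another transcript type, against 33.0% and 10.7% of the others. Median distance to the nearest protein-coding start was 1.09 kb for the CpG-rich peaks and 20.3 kb for the others. WGATAR between 100 and 250 bp away was found in 18.9% of the CpG-rich and 49% of the other peaks. The tallest CpG-rich peak had 35 reads, in an intron of Grcc10. Intronic and intergenic WGATAR-free peaks had median pileups of 13 and 14 reads.

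Repeated sequence can place reads at more than one site. At least 1 24-base word found elsewhere in the genome stood in 247 of 1238 WGATAR-free windows, 16.8% of windows with WGATAR (exact adjusted p = 0.0508) and 27.5% of shared windows (exact adjusted p = 0.0349). The difference from shared windows did not pass with 3 kb promoters, with all transcript types excluded or with 1 peak of each class per 100 kb. Over 50% of the words were repeated in 16 WGATAR-free windows (1.29%). By chromosome, density ranged from 0.218 peaks per 10 Mb on Y and 0.760 on X to 10.2 on chromosome 11, which also held 607 of all 6254 GATA2 peaks, against 60 on X and 5 on Y.

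Motifs of other blood transcription factors were then compared between the classes. Of 22 motifs, 11 differed between WGATAR-free peaks and distal GATA2-only peaks with WGATAR, 3 higher and 8 lower in the WGATAR-free peaks (Fisher's exact test, two-sided, adjusted p under 0.05 over 22 motifs). The core GATA was left out of this comparison because the choice fixed it. Window composition and the other GATA cores, which bear on several motif shares, were not free of that choice either. Median pileup was 13 against 16 reads in these classes, and its part in the motif shares was not tested.

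AGGAAG, the core bound by ETS factors such as FLI1 and ERG, was the most frequent blood factor motif in WGATAR-free peaks, at 36.5% (452 of 1238, interval 33.9% to 39.2%). Their flanking windows held it in 24.4%, all GATA2 peaks in 29.5% and peaks with WGATAR in 42.5% (exact adjusted p = 0.00624). The difference from peaks with WGATAR did not pass without repeated windows, with a 50 bp window, without CpG-rich windows, or when starts and exons of all transcript types were excluded. Against shared sites lacking WGATAR (21.9%), the WGATAR-free GATA2-only peaks were 14.6 points higher (exact adjusted p = 0.00230 over 23 motifs), which did not pass under the last of these alternatives or without CpG-rich windows. GAGGAAGT, the longer form bound by PU.1, which includes AGGAAG, stood in 47 WGATAR-free peaks, 5.44% of peaks with WGATAR (exact adjusted p = 0.0923), 1.67% of flanking windows and 3.13% of all GATA2 peaks.

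TGTGGT, the motif of RUNX1, was found in 21.2% of WGATAR-free peaks and 30.5% of peaks with WGATAR, a difference of 9.27 points (exact adjusted p = 8.42e-07). Flanking windows held it in 16% and all GATA2 peaks in 16.2%. The difference passed under all 12 alternatives tried. CAGATG, the E-box of TAL1, was found in 15.7% against 21.8% (exact adjusted p = 3.97e-04), with 14.3% in flanking windows and 12.1% of all GATA2 peaks. CAGCTG, an E-box of E proteins, was found in 14.1% against 19.4% (exact adjusted p = 0.00132), with 11.3% in flanking windows and 13.2% of all GATA2 peaks. Both E-box differences did not pass with a 50 bp window or without CpG-rich windows.

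GGGCGG, the GC box of SP and KLF factors, went the other way. It stood in 22.3% of WGATAR-free peaks and 6.76% of peaks with WGATAR, 15.5 points apart (exact adjusted p = 3.99e-29), and in 4.78% of flanking windows and 39.2% of all GATA2 peaks. Shared sites held it in 36.9% (exact adjusted p = 0.00230), a difference that did not pass at a q-value limit of 1e-10, without CpG-rich windows or with all transcript types excluded. In windows that were not CpG-rich, 13.3% of WGATAR-free peaks and 5.66% of peaks with WGATAR held it, and the difference from peaks with WGATAR passed under all 12 alternatives. AGGNGGC, part of the motif of the insulator protein CTCF, was found in 21.2% against 14.2% (exact adjusted p = 1.84e-05), with 12.6% in flanking windows and 25.6% of all GATA2 peaks, and did not pass with a 50 bp window. CCGGAA, the CpG-containing ETS core of the GABPA and ELK type, was found in 7.43% against 4.12% (exact adjusted p = 0.00132), with 2.94% in flanking windows and 12.2% of all GATA2 peaks, and did not pass with a 50 bp window, without CpG-rich windows or with all transcript types excluded.

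The other motifs that passed were lower in WGATAR-free peaks by under 5 points. They were the GATA core with A or T before it and C or T after it (18.4% against 23.3%, exact adjusted p = 0.00649), TGACAG of MEIS1 (18.6% against 22.3%, exact adjusted p = 0.0488), CAACNG of MYB (27.1% against 31.2%, exact adjusted p = 0.0496) and TGATTNAT of HOX and PBX factors (1.94% against 3.46%, exact adjusted p = 0.0488). Over all GATA2 peaks these stood in 13%, 14.9%, 26.0% and 1.44%. In flanking windows lacking WGATAR and in those with it, between which no test was made, their shares were 22.7% and 25.9%, 13% and 15.2%, 22.1% and 22.4%, and 2.19% and 4.45%. For the 3 motifs that were higher in WGATAR-free peaks, these shares were 4.78% and 3.24% for GGGCGG, 12.6% and 9.58% for AGGNGGC, and 2.94% and 2.56% for CCGGAA. Each of the 4 lost its call under at least 3 of the 12 alternatives, and CAACNG under 7. The core GATA, in any context, was present in 35.0% of WGATAR-free peaks, 39.4% of their flanking windows lacking WGATAR, 48.2% of all GATA2 peaks and 29.4% of shared sites (exact adjusted p = 0.353). GATA cores with C or G before and A or G after stood in 14.9%, 12.3% of flanking windows and 12.6% of all GATA2 peaks, and did not differ past the threshold from peaks with WGATAR (13.9%, exact adjusted p = 0.555).

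**Figure D4:**
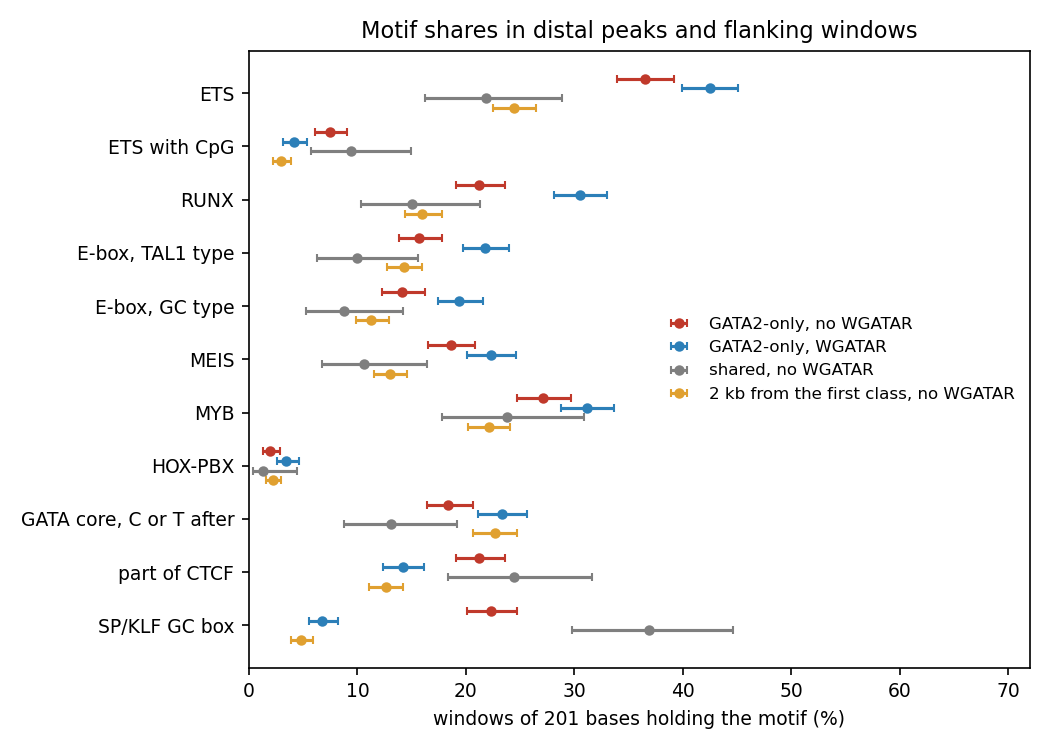
Share of windows (100 bp to each side of the summit, %) holding each of the 11 motifs that passed, in the 3 classes of distal peaks and in windows 2 kb from the WGATAR-free peaks that also lack WGATAR; bars are 95% Wilson intervals. ETS and RUNX motifs in WGATAR-free peaks (36.5% and 21.2%) lie between flanking windows and peaks with WGATAR, and the GC box (22.3%) lies above both.

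The 11 other motifs did not pass the test against peaks with WGATAR, among them TGANTCA of AP-1 and NF-E2 (9.77% against 12%, exact adjusted p = 0.132), CCAAT of NF-Y (18.8% against 20.2%), TTGCNNAA of C/EBP factors (7.27% against 8.68%) and TTCNNNGAA of STAT factors (4.77% against 4.93%). Their shares over all GATA2 peaks were 6.33%, 25.2%, 5.76% and 3.84%. CCACACCC of KLF1 (2.83%; 2.73% of all GATA2 peaks), AAATCAC of GFI1 (1.05%; 0.959%), GAAANNGAA of IRF factors (5.01%; 3.66%), GCATGCGC of NRF1 (0.808%; 2.27%) and AANATGGC of YY1 (2.10%; 3.53%) were each rare. Against shared sites only AGGAAG and GGGCGG passed among 23 motifs, and GAAANNGAA (5.01% against 0.625%, exact adjusted p = 0.0554) and TGACAG (18.6% against 10.6%, exact adjusted p = 0.0648) did not. With 160 shared sites, intervals of their shares were wide.

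Position within the peaks separated the motifs. In 50 bp bins, GGGCGG was found in 6.95% to 8.64% of WGATAR-free peaks in the bins on either side of the summit, and in 2.15% on average from 500 to 1000 bp away. AGGAAG was found in 9.53% to 10.9% at the summit and 7.12% farther out, and TGTGGT in 5.33% to 6.87% and 3.83%. In peaks with WGATAR the same bins held AGGAAG in 12.9% to 13.2% and TGTGGT in 8.82% to 10.2%. CAGATG did not stand out at the summits of WGATAR-free peaks, within the range of the bins farther out (3.31% to 5.41%), against 6.40% at the summits of peaks with WGATAR. WGATAR in WGATAR-free peaks was found in 11.1% and 12.5% of peaks in the bins next to the excluded window, on either side, and in 8.98% farther out.

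**Figure D5:**
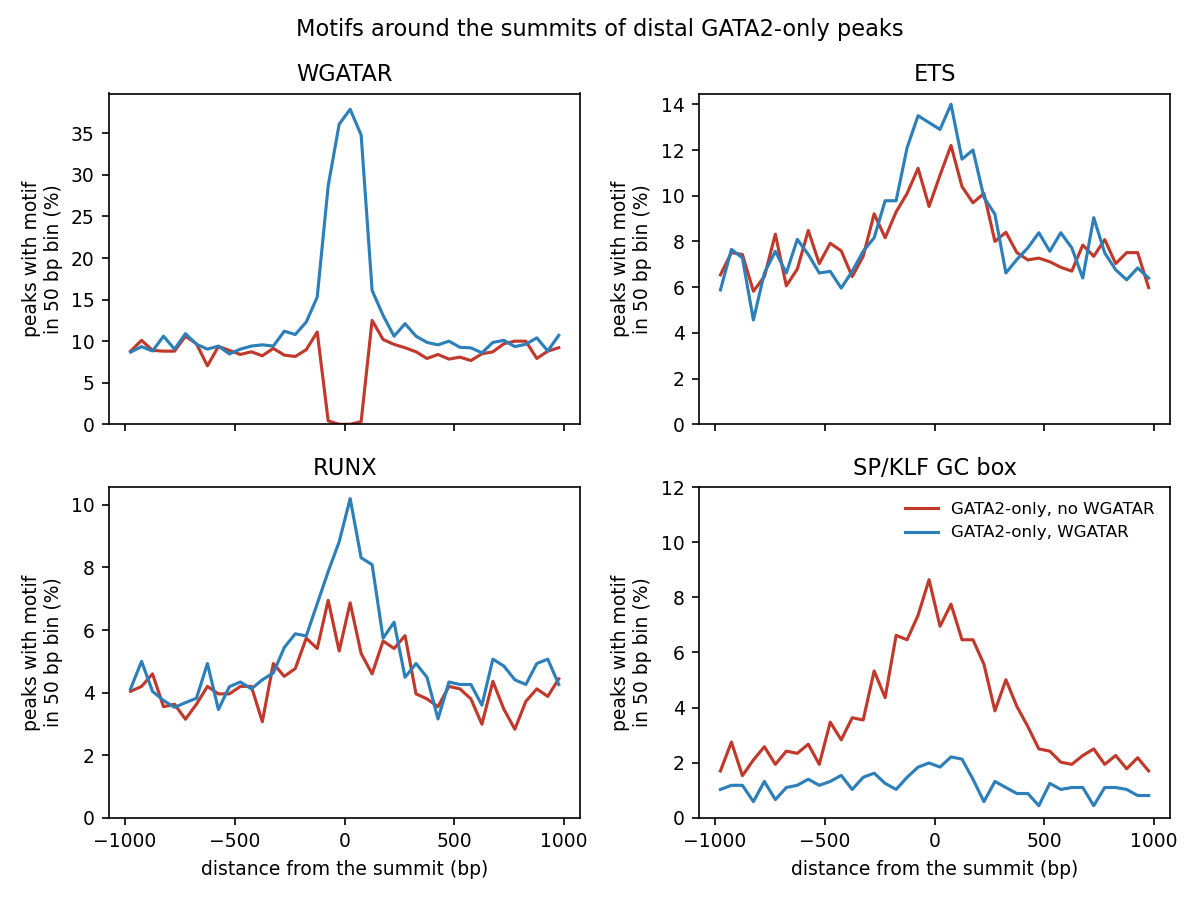
Share of distal GATA2-only peaks (%) with WGATAR, the ETS core AGGAAG, the RUNX motif TGTGGT or the GC box GGGCGG in 50 bp bins against distance from the summit (bp), for WGATAR-free peaks and peaks with WGATAR. WGATAR is at or near 0 within 100 bp in WGATAR-free peaks by their choice and stands at 11.1% and 12.5% in the bins just outside, and the GC box peaks at 8.64%.

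The 10 tallest WGATAR-free peaks were 7 intergenic and 3 intronic sites, none of them CpG-rich. The tallest (chr17:84116157-84117017, 66 reads) lay 71.4 kb downstream of the start of Zfp36l2 (ENSMUSG00000045817.8), which encodes an RNA-binding protein that promotes mRNA decay. The next (chr6:120956195-120957420, 64 reads) lay in an intron of Mical3 and 39.9 kb upstream of Bid (ENSMUSG00000004446.12), a pro-apoptotic BCL-2 family gene. Nsmce1 (ENSMUSG00000030750.13), which encodes a subunit of the SMC5/6 complex, had its peak in its own intron (chr7:125472053-125472839, 48 reads). The peak nearest to Bcl6 (ENSMUSG00000022508.5), a transcriptional repressor gene, lay 163 kb upstream of it (chr16:24151137-24151545, 42 reads). That of Arhgap25 (ENSMUSG00000030047.14) lay 9.01 kb upstream (chr6:87541878-87542414, 43 reads). Others were an intronic peak of Lmf1 (39 reads) and intergenic peaks near Sh2d6 (41 reads), Mfsd4a (36 reads) and Dad1 (48 reads).

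The peak near Dad1 lay 503 kb from that gene, among T cell receptor alpha segments. WGATAR-free peaks within 1 kb of a receptor segment numbered 6 (0.485%), a set chosen after its values were seen. Of these, 3 stood at Igkv10-94 (32 reads), Igkv10-95 (54 reads) and Igkv10-96 (36 reads), with 56.2%, 60.7% and 30.3% of their 24-base words found elsewhere in the genome. The others stood at Ighv1-58 (26 reads, 33.1%), Trav16 (14 reads, 35.4%) and Trac (21 reads, 0%).

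Most genes nearest to a WGATAR-free peak had a single one: 900 of 1044 genes, whereas 34 genes had 3 or more. Zfp36l2 had the most, with 6 of its 11 GATA2 peaks WGATAR-free, at 12, 13, 66, 12, 26 and 25 reads in chromosome order. Of these, 4 stood within 68.4 to 73.8 kb downstream of its start. Runx1 (ENSMUSG00000022952.17), a regulator of hematopoietic stem cell emergence, had 5 of 10, at 18 and 12 reads in its introns and 19, 11 and 18 reads between 321 and 327 kb upstream, the site of 11 reads with 40.4% of its words found elsewhere. Myb (ENSMUSG00000019982.15), required for definitive hematopoiesis, had 5 of 12, all low, at 11, 13, 14, 11 and 13 reads. Of these, 2 lay in its own introns, the nearer (chr10:21136614-21137009) 24.2 kb downstream of the start, and 1 in an intron of Ahi1.

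Gse1 (ENSMUSG00000031822.20) had 5 of 11, all in its introns and those of the overlapping Gm20388, with 9 to 25 reads. Genes with 4 each, taken in alphabetical order, included Foxp1, a forkhead factor gene (10 to 21 reads, all intronic), Frmd8 (13 to 17 reads, 1 of them at the long non-coding RNA gene Neat1), Gsdmc, a gasdermin gene (10 to 23 reads, 1 site with 29.8% of its words found elsewhere), Irf2, an interferon regulatory factor gene (11 to 16 reads) and Tiam1, which encodes a RAC activator (11 to 20 reads). Distal GATA2-only peaks with WGATAR accompanied them at Zfp36l2 (3), Gse1 (6), Myb (4), Runx1 (4), Foxp1 (1), Frmd8 (1), Gsdmc (2), Irf2 (2) and Tiam1 (3).

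WGATAR-free peaks were linked to genes within 100 kb of the gene start. Of 21938 protein-coding genes, 3483 (15.9%) had one, 3340 (15.2%) had a distal GATA2-only peak with WGATAR, and 11432 (52.1%) had a GATA2 peak of any kind. Gene lists were described by their counts and not tested. Where a listed gene had several sites within 100 kb, only the one nearest to its start is described below. Of 27 genes for cytokine receptors and JAK-STAT signalling, 15 (55.6%) had a WGATAR-free peak and 9 (33.3%) a distal GATA2-only peak with WGATAR, and 23 (85.2%) had any GATA2 peak. Of 34 genes for progenitor transcription factors, 14 (41.2%) had a WGATAR-free peak and 16 (47.1%) one with WGATAR. Mast cell and basophil genes showed 3 of 17 (17.6%) against 10 of 17 (58.8%).

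Among cytokine signalling genes, a single intronic site of Stat3 (chr11:100891126-100892153, 29 reads) lay within 100 kb of Stat3, Stat5a and Stat5b, which encode transducers of cytokine receptor signals. Its nearest WGATAR was 394 bp away, and it held AGGAAG. Pim1, a STAT-induced kinase gene, had a site 10.5 kb downstream of its start (13 reads), and Cish and Socs2, which encode inhibitors of this signalling, had sites 7.13 and 98.2 kb upstream (12 and 10 reads). The Cish and Socs2 sites lay in introns of Mapkapk3 and Ube2n, 980 and 188 bp downstream of the starts of those genes. That in Ube2n was CpG-rich. Jak3 and Tyk2, receptor-associated kinase genes, had sites in introns of Unc13a (17 reads) and Pde4a (18 reads).

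For receptors, the nearest site to Csf1r had 36 reads, 52.8 kb upstream in an intron of Pdgfrb. Csf2rb encodes the beta chain that receptors for GM-CSF, IL-3 and IL-5 share. Csf2rb and Csf2rb2 had the same nearest site (chr15:78278222-78278748, 19 reads), 47.3 kb upstream of Csf2rb and with WGATAR at 109 bp. Flt3 (10 reads, 18.3 kb), Csf3r (11 reads, 86.2 kb), Csf2ra (14 reads, 37.2 kb), Ifngr1 (13 reads, 21.6 kb) and Ifnar1 (10 reads, 20.3 kb) had sites of 10 to 14 reads, and 23.6% of the words at the Csf2ra site were found elsewhere.

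Of 9 genes named as activated by GATA2 in the study's text, 5 (55.6%) had a WGATAR-free peak. Of 25 named there as repressed, 1, the B cell factor gene Ebf1, did (10 reads, 4.01 kb upstream). A distal GATA2-only peak with WGATAR was near 5 of the 9 activated and 2 of the 25 repressed genes, and a GATA2 peak of any kind near all 9 and 8. These genes, a small part of those the study called, were chosen from its own expression and occupancy work, so their counts are not independent. Gata1 (ENSMUSG00000031162.14), the erythroid GATA factor gene, had an intronic site 6.67 kb downstream of its start (18 reads) with a WGATAR whose farthest base was the first position past the limit. Far2 (ENSMUSG00000030303.15) had an intronic site (27 reads, 62.1 kb) with WGATAR at 107 bp. Hdc, the histidine decarboxylase gene, and S1pr4, a sphingosine phosphate receptor gene, had theirs 88.2 and 35.6 kb away in introns of Usp8 and Celf5, at 10 and 11 reads, with the nearest WGATAR 829 and 1047 bp off. The Hdc site was CpG-rich and lay 185 bp downstream of the Usp8 start.

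Among progenitor factor genes, Gata2 (ENSMUSG00000015053.14) had 1 WGATAR-free site in its intron, 9.58 kb downstream of its start (chr6:88202940-88203822, 22 reads), beside 5 distal GATA2-only peaks with WGATAR within 100 kb. The nearest WGATAR to this site lay 272 bp from the summit, inside the called peak. Tal1 (11 reads, 6.57 kb), Runx1 (12 reads, 2.37 kb), Meis1 (16 reads, 69.9 kb) and Zfpm1, which encodes the GATA cofactor FOG-1 (12 reads, 14.4 kb), had theirs downstream of the start in their introns. Nfe2 (28 reads, 81.3 kb) had the tallest of these nearest sites, in an intron of Zfp385a and 413 bp downstream of the Zfp385a start. The remaining genes were Cebpa (13 reads), Cebpb (14 reads), Sox4 (13 reads), Lyl1 (16 reads), Ikzf1 (16 reads), Cbfa2t3 (13 reads), Gfi1b (10 reads) and Myb (11 reads).

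Of 15 genes for ETS factors, Spi1, which encodes PU.1, had an intronic site 0.794 kb downstream of its start (10 reads), and Elf2 (11 reads), Elk4 (14 reads) and Fli1 (10 reads) had theirs 18.3, 12.5 and 34.1 kb away, that of Elk4 with 39.3% of its 24-base words found elsewhere. That made 4 of 15 (26.7%), the same number as had a distal GATA2-only peak with WGATAR. For mast cell genes, Cpa3, a mast cell protease gene, had an intronic site (14 reads) with WGATAR at 118 bp and 51.7% of its 24-base words found elsewhere, and Alox5 and Ltc4s, genes of leukotriene synthesis, had intronic sites of 17 and 21 reads. Of 9 neutrophil granule genes, 4 had a distal GATA2-only peak with WGATAR and 3 (33.3%) a WGATAR-free one: Mpo 67.1 kb upstream in an intron of Rnf43 (29 reads), and Elane and Prtn3 by 1 shared site in an intron of Arid3a (11 reads). That shared site was CpG-rich and lay 598 bp downstream of the Arid3a start. The nearest sites of the 45 listed genes numbered 41, of which 10 (24.4%) had WGATAR within 150 bp, against 267 of all 1238 (21.6%).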

How the data were processed

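Anti-HA CUT&Tag peaks of hi–77−/− cells with GATA2 or 9aa-Ins were analysed as 2 lists. The authors aligned reads to mm10 (Bowtie2) and removed duplicated reads and those in blacklisted regions. They called peaks with MACS3 at a q-value of 1e-06, both replicates being merged in each list. Versions are not given in the sources used here. For each peak the deposited file gave a score, a fold enrichment (ratio), and −log10 p- and q-values; the q-value set one alternative, and p-values and scores did not enter. No column of another sample was found (0). Whole pileups were recovered from the fold, with a largest deviation of 5.02e-04.

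Peaks were placed on GENCODE M21 (comprehensive set, protein-coding transcripts; chosen after counting peaks under several versions) and GRCm38 sequence, which is RefSeq's. Motifs were read on either strand, up to 100 bp from each summit. Classes were compared by Fisher's exact test (two-sided) with Benjamini-Hochberg adjustment within each comparison, in scipy 1.17.1 (python 3.11.15); shares have Wilson 95% intervals. The overlap, motif and test steps were tested on simulated data. The peaks and lists, which were chosen with earlier results of these data known, are described rather than tested where the choice used the value. Named genes were those nearest to the 10 tallest peaks, listed genes with a peak within 100 kb, and the 10 genes nearest to most peaks, of which 1, also nearest to a tall peak, is not reported here; sequences followed height and the tested motifs. Alternatives changed the overlap, q-value, window, promoter, annotation, repeats and spacing of peaks.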

Additional observations from a re-analysis of the deposited data

How the results depend on the processing

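Of 124 recomputed values, those not given here kept their direction and side of the threshold, or a count within 1.5 times. The number of WGATAR-free peaks was 807 with a window of 200 bp. The intronic difference, which did not pass, was reversed at a q-value limit of 1e-10 (-0.652 points), with a 50 bp window (-0.529) and without CpG-rich windows (-0.573), and passed with 1 peak of each class per 100 kb (5.52). The repeated-sequence difference passed at q-value limits of 1e-08 (3.45) and 1e-10 (4.80), with 3 kb promoters (3.64) and without CpG-rich windows (3.82), and was reversed with a 200 bp window (-0.503). Nearness to another GATA2 peak did not pass at 1e-10 (3.34) or with a 50 bp window (3.86). Without CpG-rich windows, nearness to other transcript starts (1.82) and WGATAR between 100 and 250 bp against shared sites (8.45) did not pass. Motifs that differed from peaks with WGATAR numbered 2 with a 50 bp window, 5 with starts and exons of all transcript types excluded and 3 without CpG-rich windows. Against shared sites they numbered 4 at 1e-08, and 0 with all transcript types or without CpG-rich windows, where 3 of 23 each had an unadjusted p under 0.05 in Fisher's exact test. The causes were not tested. Within 50 kb in place of 100 kb, 1994 protein-coding genes had a WGATAR-free peak, and within 10 kb 605, of which 11 were listed genes. The GENCODE basic set, which gave 1316 WGATAR-free peaks, and the removal of CpG-rich windows were chosen after seeing the data.

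No paired analysis was possible because both replicates are merged in every list, and for the same reason no replicate was left out. Values near other transcript starts, for repeated words, and for the range from 100 to 250 bp were not computed where the alternative itself fixed them. Depth per library was not analysed here, and at 9 reads, the lowest height called, sites below the limit cannot be told apart from unoccupied ones.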
